A study of Homo sapiens with 18 samples.

Results

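The response of OCI-AML1 cells to 8 h with SEL120-34A was compared with 8 h in the solvent DMSO. OCI-AML1 is a human acute myeloid leukaemia cell line, and SEL120-34A is an inhibitor of the Mediator kinases CDK8 and CDK19. The comparison took 6 of the 18 libraries of the series by their titles, 3 with SEL120-34A and 3 with DMSO, and all genes in them. The other libraries were 3 with AML874 for 8 h and 3 with each of SEL120-34A, AML874 and DMSO for 24 h. AML874 is a code name, and the labels give a dose for neither compound. All groups were the same line with no genetic change named in the labels, and nothing in the labels says that the 3 libraries of a group came from separate cultures, so a p-value speaks of the spread from library to library, which may be technical. The title of the series concerns inhibition of the Mediator kinases and sensitivity to venetoclax, an inhibitor of BCL2.

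Mediator is a large protein complex that carries signals from transcription factors on enhancers and promoters to RNA polymerase II. CDK8 or CDK19 joins it in a detachable module with cyclin C, MED12 and MED13, and the kinases phosphorylate transcription factors and parts of the transcription machinery. In acute myeloid leukaemia cells this module is known for its influence on genes that are controlled by large enhancers, among them genes of myeloid identity.

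Polyadenylated RNA was counted per gene on the strand of the gene, with 107148334 to 122472983 counts per SEL120-34A library and 98975944 to 136249441 per DMSO library. Levels are given in CPM, counts relative to the library size after scaling between libraries, as single libraries or as means with their standard deviation (SD, n = 3 libraries a group throughout). CPM is not scaled for gene length. Changes are log2 fold changes of SEL120-34A over DMSO with their standard error, and a gene was called where edgeR's quasi-likelihood test gave a Benjamini-Hochberg adjusted p under 0.05 over 20920 genes. The myeloid marker CD33 lay at 88.3 to 97.8 CPM of unscaled library totals in the 6 libraries, and SPI1 and LYZ, a myeloid transcription factor and lysozyme, were abundant too. KIT and ITGAM, also on the myeloid list, lay at 0.22 to 0.676 and 1.89 to 3.01 CPM of the same totals. ANPEP of that list had at most 7 counts in a library, and CSF2RA had 0. The counts leave out reads that map to more than 1 place, so a count of 0 need not mean absent RNA. Markers of T cells, erythroid cells and epithelium had at most 4 counts per gene, and those of fibroblasts at most 17. The B cell gene CD79A had 109 to 207 counts, the megakaryocyte gene ITGA2B 112 to 186 and the mast cell gene TPSAB1 404 to 522. The other megakaryocyte and mast cell markers had at most 5.

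With SEL120-34A, 9425 genes were called (45.1%), of which 4693 were higher and 4732 lower, 22.4% and 22.6% of the genes tested. By at least 2-fold 1084 were higher and 209 lower, 5.18% and 0.999% of them. The libraries of both groups did not overlap for 51.8% of the genes tested. In bulk RNA, fewer cells of a type and less RNA per cell cannot be told apart. Under scaling by library totals alone, which shifted the median of all genes to 0.06 on the log2 scale, 66.5% of the calls were higher, against 49.8% with the scaling used here.

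The largest fall among protein-coding genes with at least 50 CPM in the higher group was that of EGR1 (chr5:138465490-138469315, plus strand, GRCh38), an immediate early transcription factor that growth factor signals switch on. EGR1 measured 7.43, 9.3 and 6.99 CPM in the SEL120-34A libraries, against 54.6, 53.7 and 89.3 CPM in the DMSO libraries. Each SEL120-34A library was far below each DMSO library, and replicate 3 of DMSO was the highest. The log2 change was -3.06 ± 0.23 (adjusted p = 1.62e-07). The stretch of the EGR1 promoter that is shown holds a pair of CArG boxes, the sites that serum response factor binds. It lies at chr5:138465349-138465430 on the plus strand of GRCh38.p14, from RefSeq, and the capitals mark the boxes.
EGR1 promoter: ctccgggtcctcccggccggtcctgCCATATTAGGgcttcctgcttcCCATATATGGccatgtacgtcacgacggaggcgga
CArG boxes, searched on both strands, were in 1.29% of the 35116 promoter windows of that table, each 250 bases before and 50 after the start. Among 24 EGR, NAB, AP-1 and other immediate early genes with such a window, EGR1 and SRF had 2 boxes and EGR2 had 1. This count is per gene, taking its window with the most boxes, whereas the 1.29% is per window. EGR2 had 0.486 CPM with SEL120-34A and 0.375 CPM with DMSO and was not called, though it was without replicate 3 of DMSO (0.90), and SRF, which encodes the serum response factor itself, changed by 0.09, a call that was lost without replicate 1 or 3 of DMSO or replicate 1 or 2 of SEL120-34A, at values of 0.06 to 0.08.

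Genes around EGR1 changed less. NAB2, which EGR1 induces and which then represses EGR1 targets, measured 5.38, 4.76 and 5.93 CPM with SEL120-34A and 6.93, 6.93 and 6.7 CPM with DMSO, a log2 change of -0.36 ± 0.09. The groups did not overlap. NAB1 fell by 0.21 on the log2 scale. EGR3 and EGR4 rose by 1.43 and 0.59 at levels under 1 CPM. Without replicate 3 of DMSO their changes were 0.96 and 0.46, without replicate 3 of SEL120-34A 0.99 and 0.59, and for EGR4 0.54 without replicate 2 of DMSO and 0.43 without replicate 2 of SEL120-34A, none of these called. Of 24 AP-1 and immediate early genes, 12 were lower and 4 higher, at a median of -0.21, against -0.00 over all genes tested and shares of 29.8% lower and 25.7% higher over protein-coding genes. FOS, a subunit of AP-1, measured 18.6, 23.2 and 18.4 CPM with SEL120-34A and 31.3, 28.6 and 37.4 CPM with DMSO, a log2 change of -0.69 ± 0.10. JUNB, its partner, fell by 0.53 ± 0.04, and the immediate early genes IER2 and KLF2 fell by 0.42 ± 0.04 and 0.49 ± 0.09. ZFP36, whose protein speeds the decay of unstable mRNAs, fell by 0.63 ± 0.08 and its relative ZFP36L2 by 0.42 ± 0.03, while ZFP36L1 rose by 0.52 ± 0.15. The growth arrest gene BTG2 rose by 0.39 ± 0.10. The call of ZFP36L1 was lost (adjusted p = 0.0518, log2 change 0.52) when replicate 3 of DMSO and replicate 2 of SEL120-34A, the libraries highest on a list of hypoxia targets in their groups, were left out.

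Among transcripts outside the protein-coding class with at least 2 CPM in the higher group, the largest fall was that of MIR223HG (chrX:66015461-66020422, plus strand, GRCh38), the host of miR-223, a microRNA that is abundant in myeloid cells and known for its part in granulocyte differentiation. MIR223HG measured 9.25, 9.17 and 8.89 CPM with SEL120-34A and 50.7, 50.3 and 47.7 CPM with DMSO. All 3 SEL120-34A libraries lay far below the lowest DMSO library, and the log2 change was -2.44 ± 0.04 (adjusted p = 9.2e-31). Of 35 tested microRNA host genes, a list added after values had been seen, 10 were lower and 7 higher, close to the 22.6% and 22.4% of all genes tested, and the median was 0.05. MIR23AHG fell by 0.71 ± 0.05, MIR17HG, the host of the miR-17 to miR-92a cluster, by 0.67 ± 0.06, and MIR142HG, a host active in blood cells, by 0.60 ± 0.08. MIR142HG measured 24.4, 22.7 and 24.4 CPM with SEL120-34A and 37.4, 36.9 and 34.1 CPM with DMSO. The mature microRNAs were not measured, because the libraries held long polyadenylated RNA. Those whose hairpins lie on the same strand within these hosts are given to show which products the hosts carry, as RefSeq lists them on GRCh38.p14, with the seed, bases 2 to 8, in capitals.
miR-223-3p, from MIR223HG: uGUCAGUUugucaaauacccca
miR-142-5p, from MIR142HG: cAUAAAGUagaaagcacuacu
miR-142-3p, from MIR142HG: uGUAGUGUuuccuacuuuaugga
miR-17-5p, from MIR17HG: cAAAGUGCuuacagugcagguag
miR-20a-5p, from MIR17HG: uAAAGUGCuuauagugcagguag
miR-19a-3p, from MIR17HG: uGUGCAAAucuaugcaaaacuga
miR-19b-3p, from MIR17HG: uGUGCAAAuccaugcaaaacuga
miR-23a-3p, from MIR23AHG: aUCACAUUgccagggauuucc
miR-27a-3p, from MIR23AHG: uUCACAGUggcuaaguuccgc
miR-24-3p, from MIR23AHG: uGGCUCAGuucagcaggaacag
In the host MIR17HG, miR-17-5p and miR-20a-5p share a seed, and miR-19a-3p and miR-19b-3p share another. The seeds of miR-223-3p and of both miR-142 arms were found in no other of the 15 called hosts whose mature sequences on the same strand were compared. The other called hosts, of 17, did not enter this comparison. MIR34AHG and MIR29B2CHG, the hosts of miR-34a and of miR-29b and miR-29c, rose by 0.34 ± 0.07 and 0.29 ± 0.11, the call of MIR29B2CHG being lost without replicate 1 or 2 of DMSO or any 1 SEL120-34A library (0.22 to 0.29).

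**Figure D1:**
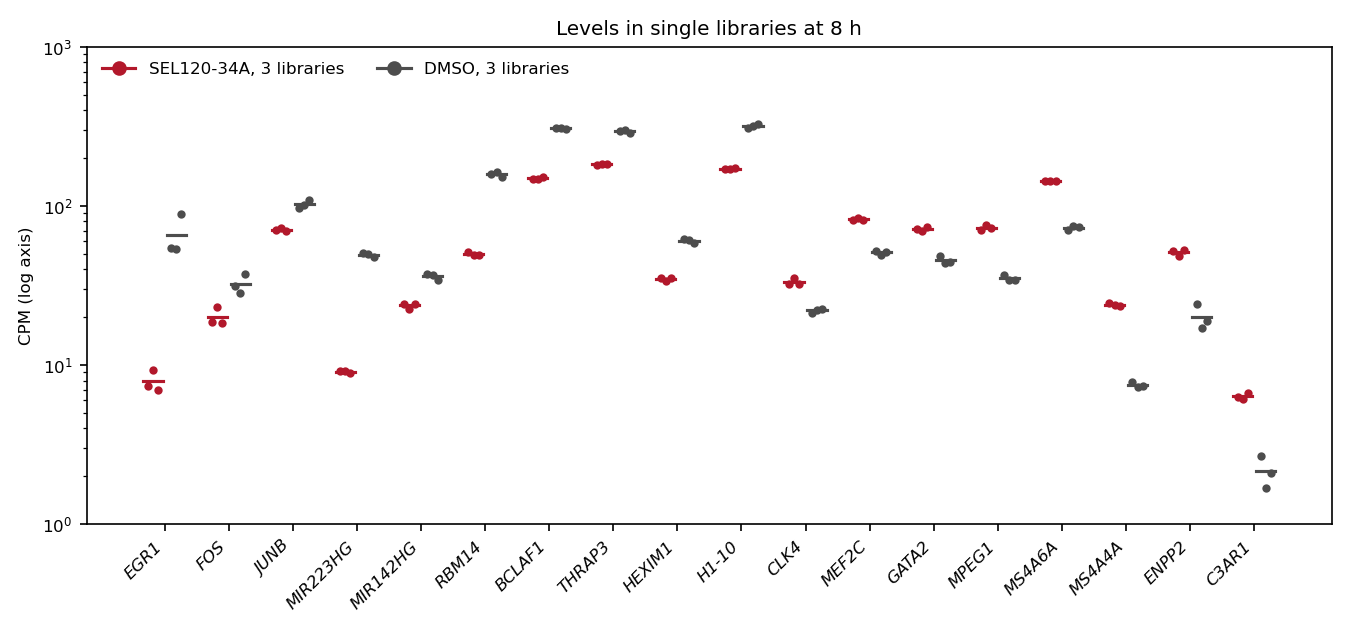
Levels of 18 genes in single libraries at 8 h, in CPM on a log axis, with SEL120-34A in red left of DMSO in grey, points for libraries and bars for group means. EGR1 and MIR223HG lie lowest relative to DMSO.

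Several of the largest falls among abundant genes were of genes for RNA-processing proteins. RBM14 (chr11:66616582-66627347, plus strand, GRCh38), an RNA-binding coactivator of paraspeckles, measured 51.8, 49 and 49.6 CPM with SEL120-34A and 158, 164 and 152 CPM with DMSO, a log2 change of -1.66 ± 0.04. BCLAF1 measured 147, 149 and 152 CPM with SEL120-34A and 311, 309 and 306 CPM with DMSO, a change of -1.05 ± 0.03. Its relative THRAP3, with which it works in mRNA processing and export, measured 181, 185 and 185 CPM with SEL120-34A and 296, 300 and 290 CPM with DMSO, a change of -0.69 ± 0.02. In these genes the spread within a group was small beside the gap between groups. Of 14 RNA-binding coactivators, 7 fell and 5 rose, where 29.8% and 25.7% of protein-coding genes did, and 52.2% of those above 100 CPM fell. SFPQ, a core protein of paraspeckles, fell by 0.35 ± 0.03, and SAFB2, a scaffold attachment factor, rose by 0.42 ± 0.03. RBM4, next to RBM14 on chromosome 11 and counted among the 5, was 0.72 ± 0.04 higher in the read counts and -0.41 in the authors' RSEM estimates (rounded expected counts), and no direction is given for it. RBM14 fell in both, by 1.66 in the read counts and by 1.65 in the RSEM estimates.

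Of 14 genes of SR proteins, which select splice sites, 11 were lower and 2 higher, and the median was -0.21. Among protein-coding genes above 100 CPM, the class of most SR genes, 52.2% were lower. TRA2A measured 62.2, 62.7 and 61.2 CPM with SEL120-34A and 105, 104 and 98.3 CPM with DMSO, a change of -0.72 ± 0.03. SRSF2 fell by 0.62 ± 0.04, SRSF1 by 0.53 ± 0.03 and TRA2B by 0.50 ± 0.03, while SRSF6 and SRSF5 rose by 0.17 ± 0.03 and 0.14 ± 0.02. Of 19 tested hnRNP genes, whose proteins coat nascent RNA, 11 fell and 1 rose, a share of falls near the 52.2% of that class. HNRNPD, at 354, 340 and 347 CPM with SEL120-34A and 586, 583 and 549 CPM with DMSO, changed most, by -0.72 ± 0.03. HNRNPDL fell by 0.60 ± 0.02 and HNRNPA1 by 0.41 ± 0.03. The kinases of SR proteins went both ways, with 5 of 9 higher and 4 lower, where 25.7% and 29.8% of protein-coding genes were. CLK1, CLK3 and CLK4 rose by 0.49 ± 0.03, 0.52 ± 0.03 and 0.59 ± 0.04, and SRPK1 fell by 0.18 ± 0.03. CLK4 measured 32.4, 35.2 and 32.2 CPM with SEL120-34A and 21.3, 22.2 and 22.7 CPM with DMSO.

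Of 28 host genes of small nucleolar RNAs 20 were lower and 2 higher, where 22.6% and 22.4% of all genes tested were, and their median was -0.25. Outside the protein-coding class, 34.9% of transcripts at 10 to 100 CPM and 63.2% of 19 above 100 CPM were lower. SNHG26 measured 18.3, 18.1 and 19.3 CPM with SEL120-34A and 36, 35.1 and 34 CPM with DMSO, a change of -0.92 ± 0.05. SNHG3, SNHG1 and GAS5 fell by 0.61 ± 0.04, 0.48 ± 0.03 and 0.43 ± 0.03, and SNORA73B, a snoRNA encoded in SNHG3 and short for this kind of library, fell by 1.37 ± 0.11. Of 24 nucleolar and ribosome biogenesis genes 17 were lower and 1 higher, by small amounts, where 52.2% of protein-coding genes above 100 CPM were lower. NPM1, NCL and DKC1, which serve ribosome assembly and RNA modification, changed by -0.19, -0.16 and -0.26. Among 83 cytosolic ribosomal protein genes, 30 were lower and 3 higher (median -0.05), where 52.2% of protein-coding genes above 100 CPM and 29.8% of all of them were lower. Scaled by library totals alone, 7 of these fell and 14 rose, so their direction rests on the scaling.

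Transcripts of the target itself moved little. Of 7 genes of the Mediator kinase module, MED13, the subunit that ties the module to Mediator, was the one called, at 106 ± 3.73 CPM with SEL120-34A and 128 ± 4.05 CPM with DMSO, a change of -0.27 ± 0.03. CDK8 measured 38.3, 38.5 and 37.1 CPM with SEL120-34A and 36.7, 36.9 and 37.8 CPM with DMSO, with a 95% interval of the change from -0.03 to 0.10. Scaled by library totals alone, its change was 0.10 and passed the test. CDK19 measured 54.9, 62.3 and 56.1 CPM with SEL120-34A and 55.7, 55.4 and 62.8 CPM with DMSO, with an interval from -0.11 to 0.10. CCNC, MED12, MED13L and MED12L had changes of -0.06, 0.03, 0.04 and -0.23 and were not called, CCNC being called without replicate 3 of DMSO (-0.08) or replicate 1 or 2 of SEL120-34A (-0.09 and -0.08), and MED12L without replicate 1 of DMSO (-0.32). MED12 was called under library totals (0.10), MED13L with the mean of hypoxia targets as a covariate (0.08) and CCNC with RSEM estimates (-0.07). An inhibitor of kinase activity need not change these transcripts, so they do not check the treatment. In the P-TEFb group, HEXIM1, which holds the elongation kinase CDK9 inactive, measured 35.3, 34 and 35.1 CPM with SEL120-34A and 61.8, 60.9 and 58.7 CPM with DMSO, a change of -0.80 ± 0.04. CDK9 itself rose by 0.34 ± 0.03, and the bromodomain gene BRD2 fell by 0.34 ± 0.02. Of 16 subunits of TFIID, the factor that recognises core promoters, 8 fell and 2 rose, where 29.8% and 25.7% of protein-coding genes did. Scaled by library totals alone, 4 fell and 5 rose. TAF9B measured 6.13, 5.99 and 6.27 CPM with SEL120-34A and 16.6, 16 and 16.2 CPM with DMSO, a change of -1.41 ± 0.06, while its paralog TAF9 rose by 0.27 ± 0.03. TAF4, the scaffold subunit, rose by 0.21 ± 0.03, and TAF5 fell by 0.44 ± 0.04.

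Histone genes that are transcribed outside S phase fell in 8 of 10, and none of the 10 was called higher, where 29.8% of protein-coding genes were lower and 52.2% of those above 100 CPM. H1-10, a linker histone, measured 171, 170 and 173 CPM with SEL120-34A and 311, 321 and 327 CPM with DMSO, a change of -0.90 ± 0.03. H2AX, a variant marked at DNA breaks, and H2AZ1, a variant of promoters, fell by 0.43 ± 0.04 and 0.40 ± 0.03. Replication-dependent histone genes, whose mRNAs mostly lack a poly(A) tail and are poorly sampled here, had 4 higher and 5 lower of 42 tested. Among 8 genes of DNA methylation 5 fell and 1 rose, against those 29.8% and 52.2% lower and 25.7% of protein-coding genes higher. Scaled by library totals alone, 3 fell and 1 rose. UHRF1, which brings DNMT1 to new DNA, changed by -0.49 ± 0.03 and the demethylase gene TET3 by -0.38 ± 0.03.

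The list of DNA replication and the G1/S transition had 31 of 41 genes lower and 2 higher, and a median of -0.21, where 29.8% of protein-coding genes were lower and 25.7% higher, and 52.2% of those above 100 CPM lower. CCNE2, a cyclin of S phase entry, measured 26.7, 28.1 and 26.5 CPM with SEL120-34A and 42, 42.6 and 43.8 CPM with DMSO, a change of -0.66 ± 0.04. The E2F genes E2F2 and E2F1, activators of this programme, fell by 0.65 ± 0.03 and 0.58 ± 0.04, POLA1, the catalytic subunit of DNA polymerase alpha, by 0.63 ± 0.03, and RRM2, of ribonucleotide reductase, by 0.56 ± 0.02. Of 26 mitotic genes 9 were higher and 5 lower, against those 25.7% and 29.8%, and the median was 0.05. CDC20, an activator of the anaphase-promoting complex, measured 280, 267 and 293 CPM with SEL120-34A and 233, 228 and 221 CPM with DMSO, a change of 0.30 ± 0.05. NUF2 of the kinetochore and BIRC5 of the chromosomal passenger complex rose by 0.26 ± 0.04 and 0.25 ± 0.03. CCNA1, a cyclin of germ cells and some leukaemias, rose by 0.71 ± 0.05. Scaled by library totals alone, 24 of the 41 replication genes fell and 15 of the 26 mitotic genes rose.

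**Figure D2:**
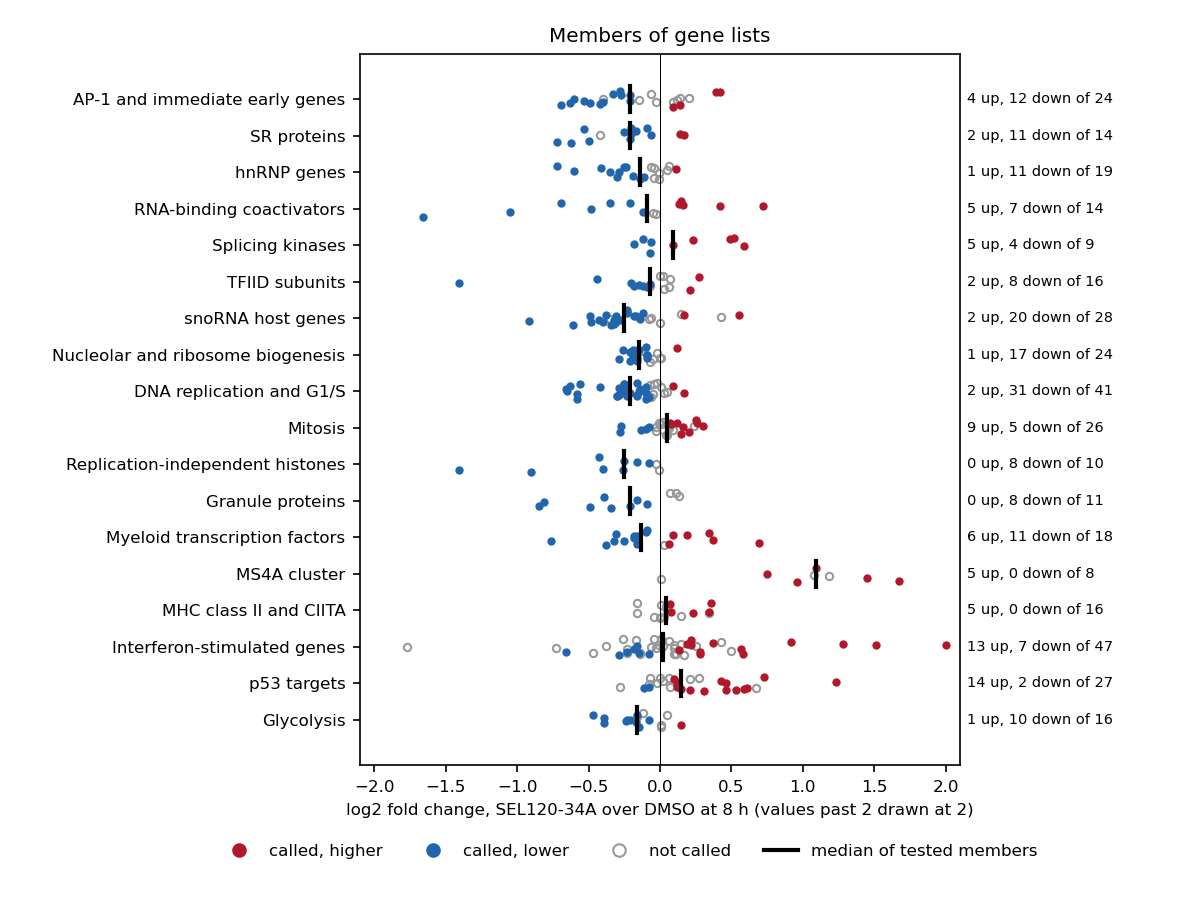
Log2 fold changes of SEL120-34A over DMSO at 8 h for the tested members of 18 gene lists, each point a gene, red called higher, blue called lower and open not called, with a bar at the list median. Falls dominate the lists of SR proteins, snoRNA hosts, DNA replication and replication-independent histones, and rises the MS4A cluster.

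Myeloid genes moved in both directions. Of 18 tested myeloid transcription factors, 11 fell and 6 rose, where 29.8% and 25.7% of protein-coding genes did, and 52.2% of those above 100 CPM fell. NFE2 measured 3.65, 3.18 and 3.54 CPM with SEL120-34A and 5.88, 5.61 and 6.11 CPM with DMSO, a change of -0.76 ± 0.08. RUNX1 and SPI1, regulators of myeloid differentiation, fell by 0.31 ± 0.02 and 0.25 ± 0.03. MEF2C measured 81.8, 84.2 and 82 CPM with SEL120-34A and 52.4, 49.5 and 51.6 CPM with DMSO, a change of 0.69 ± 0.03, and IRF8, a factor of monocytes and dendritic cells, rose by 0.34 ± 0.02. Among progenitor genes, GATA2 measured 72, 70.1 and 74.2 CPM with SEL120-34A and 48.6, 44.1 and 44.4 CPM with DMSO, a change of 0.66 ± 0.07, and MYB fell by 0.21 ± 0.02. OLIG1, a transcription factor known from the nervous system, fell by 1.34 ± 0.04, to 15.6 ± 0.287 CPM with SEL120-34A, against 39.5 ± 1.98 CPM with DMSO.

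Granule protein genes fell in 8 of 11 tested and rose in 0, where 29.8% and 25.7% of protein-coding genes did. MPO, myeloperoxidase, measured 8.43, 8.23 and 8.17 CPM with SEL120-34A and 14.6, 16 and 14.2 CPM with DMSO, a change of -0.85 ± 0.06. SRGN, the proteoglycan of the granule matrix, fell by 0.39 ± 0.04, and RNASE2 by 0.34 ± 0.03. The granule genes ELANE, LTF, CAMP and LCN2 did not pass the filter on low counts. Of 8 tested genes of the MS4A cluster on chromosome 11, which encodes membrane proteins of myeloid and B cells, 5 rose and 0 fell, where 25.7% of protein-coding genes rose. MS4A4A measured 24.5, 23.8 and 23.4 CPM with SEL120-34A and 7.84, 7.34 and 7.38 CPM with DMSO, a change of 1.67 ± 0.04. MS4A6A measured 143 CPM in each SEL120-34A library and 71.1, 74.7 and 74 CPM with DMSO, a change of 0.96 ± 0.03, while MS4A3, a gene of granulocyte progenitors, measured 9.36 ± 0.385 CPM with SEL120-34A and 9.33 ± 0.471 CPM with DMSO and was not called. MPEG1, a pore-forming protein of macrophages on the same chromosome, measured 70.9, 76.2 and 72.9 CPM with SEL120-34A and 36.8, 34.4 and 34.5 CPM with DMSO, a change of 1.06 ± 0.04. In these 3 genes each SEL120-34A library was above each DMSO library. MS4A7 rose by 0.75 ± 0.05. LAMP5, a lysosomal membrane protein of plasmacytoid dendritic cells and some leukaemias, rose by 0.94 ± 0.03.

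Of 10 tested surface genes of progenitors and cytokine receptors, 5 rose and 5 fell, where 25.7% and 29.8% of protein-coding genes did. CD34, the marker of haematopoietic progenitors, measured 2.44, 2.65 and 2.6 CPM with SEL120-34A and 0.906, 0.83 and 0.993 CPM with DMSO, a change of 1.5 ± 0.12. CD38 rose by 0.46 ± 0.03, and CSF1R, the receptor of macrophage growth factor, by 0.39 ± 0.05. FLT3, a receptor tyrosine kinase of progenitors, measured 34, 38 and 34.1 CPM with SEL120-34A and 48.5, 47.9 and 53.2 CPM with DMSO, a change of -0.50 ± 0.06.

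ENPP2, which makes lysophosphatidic acid, measured 52, 48.3 and 53.3 CPM with SEL120-34A and 24.3, 17.1 and 19 CPM with DMSO, a change of 1.36 ± 0.25. C3AR1, the receptor of complement C3a, measured 6.32, 6.16 and 6.67 CPM with SEL120-34A and 2.7, 1.7 and 2.1 CPM with DMSO, a change of 1.58 ± 0.28. The chemokine gene CCL2 measured 17, 17.6 and 19.4 CPM with SEL120-34A and 9.93, 8.75 and 8.35 CPM with DMSO, a change of 1.00 ± 0.15. IL1B rose by 0.69 ± 0.15 at under 2 CPM, and of 21 tested NF-kappaB factors and targets 6 rose and 4 fell, near or below the 25.7% and 29.8% of protein-coding genes. NR1H3, the liver X receptor alpha, measured 7.59, 7.48 and 8 CPM with SEL120-34A and 2.96, 2.79 and 2.82 CPM with DMSO, a change of 1.43 ± 0.07. Of its targets, ABCG1, a cholesterol exporter, rose by 0.31 ± 0.06, and ABCA1, another exporter, was not called, at 55.9, 62 and 58.2 CPM with SEL120-34A and 56.5, 50.2 and 61.6 CPM with DMSO. 

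The other genes with the largest changes for their level belonged to no list. SCART1, a gene of the scavenger receptor family, measured 5.1, 4.72 and 5.43 CPM with SEL120-34A and 1.04, 0.754 and 1.07 CPM with DMSO, a change of 2.42 ± 0.12. DNHD1 and DNAH1, of the dynein family, rose by 1.68 ± 0.07 and 1.24 ± 0.05, and TOX, a transcription factor of lymphocytes, by 1.40 ± 0.07. Rises of abundant genes were those of COL23A1, a membrane collagen (0.85 ± 0.04), TEP1, a component of vaults and telomerase (0.80 ± 0.03), GOLGA4, a golgin of the trans-Golgi (0.80 ± 0.13), TPM4, a tropomyosin (0.77 ± 0.03), and CNDP2, a dipeptidase (0.74 ± 0.03). Among falls, TXNIP, an inhibitor of thioredoxin that responds to glucose, measured 70.9, 74 and 71 CPM with SEL120-34A and 128, 125 and 144 CPM with DMSO, a change of -0.88 ± 0.06. TASL, an adaptor of endosomal Toll-like receptors, measured 95.5, 102 and 96 CPM with SEL120-34A and 180, 176 and 178 CPM with DMSO, a change of -0.87 ± 0.05. At lower levels, RGL4, EMILIN1, an extracellular matrix protein, and NANOS1, an RNA-binding protein of germ cells, fell by 1.47 ± 0.08, 1.10 ± 0.10 and 1.06 ± 0.07. In TXNIP, TASL and SCART1 the libraries of both groups were far apart.

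Of 47 interferon-stimulated genes, 13 were higher and 7 lower, where 25.7% and 29.8% of protein-coding genes were, and their median was 0.02. RSAD2 and GBP4 rose by 1.28 ± 0.09 and 0.92 ± 0.09 at under 4 CPM, and TRIM22 and STAT2 by 0.58 ± 0.03 and 0.57 ± 0.04. Of 16 MHC class II genes and their regulators 5 rose and 0 fell, where 25.7% and 29.8% of protein-coding genes did, and 9 rose under scaling by library totals alone. CIITA, the transactivator of these genes, rose by 0.36 ± 0.04, while HLA-DRA and CD74 had changes of 0.01 ± 0.03 and 0.00 ± 0.03, neither called, but 0.07 each and called under library totals. 

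Genes of the BCL2 family changed by little. BCL2, the target of venetoclax, measured 326, 331 and 325 CPM with SEL120-34A and 322, 315 and 330 CPM with DMSO. The groups overlapped, and the 95% interval of the change was -0.04 to 0.08. Scaled by library totals alone, the change was 0.09 and passed the test. MCL1, an anti-apoptotic relative, fell by 0.12 ± 0.02, and BCL2L1 rose by 0.11 ± 0.04, a call that was lost without replicate 1 or 3 of DMSO (0.10 and 0.07) or replicate 3 of SEL120-34A (0.06). Of the pro-apoptotic members, BMF measured 27.6, 32.5 and 26.4 CPM with SEL120-34A and 40.3, 40.2 and 48.1 CPM with DMSO, a change of -0.57 ± 0.08. BID and BCL2L11 fell by 0.14 ± 0.03 and 0.13 ± 0.03, BCL2L11 not under library totals, BAD rose by 0.18 ± 0.04, and PMAIP1 and BBC3, at 0.16 and 0.21, missed the threshold, with adjusted p of 0.0556 and 0.0866, and passed it in several alternatives. The effectors BAX and BAK1 had changes of -0.08 and 0.13. The call of BAX was lost under library totals, and that of BAK1 without replicate 3 of DMSO (0.08) or of SEL120-34A (0.09). For p53 targets, 14 of 27 were higher and 2 lower, where 25.7% and 29.8% of protein-coding genes were, and the median was 0.15. FAS, a death receptor, measured 6.84, 7.59 and 6.7 CPM with SEL120-34A and 4.08, 4.91 and 5.05 CPM with DMSO, a change of 0.59 ± 0.08. XPC, FDXR and DDB2 rose by 0.46 ± 0.03, 0.46 ± 0.04 and 0.43 ± 0.04. CDKN1A and MDM2, best known among p53 targets, had changes of -0.28 ± 0.12, not called, and -0.11 ± 0.04. CDKN1A was called without replicate 1 of DMSO (-0.36) or replicate 2 of SEL120-34A (-0.44), and MDM2 was not without replicate 3 of DMSO (-0.08), under library totals (-0.05) or with only the groups compared (-0.10). CDKN1A was also called with DESeq2 (-0.28) and with the hypoxia covariate (-0.16).

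Lower calls were made for 10 of 16 glycolysis genes and a higher one for 1, where 52.2% of protein-coding genes above 100 CPM were lower. LDHA, lactate dehydrogenase, measured 1316, 1379 and 1255 CPM with SEL120-34A and 1767, 1588 and 1837 CPM with DMSO, a change of -0.39 ± 0.07. This list shares genes with the hypoxia targets, along which libraries of 1 group differed. The mean log2 CPM of those targets was 4.57, 5.04 and 4.28 with SEL120-34A and 4.8, 4.54 and 5.32 with DMSO, and the groups overlapped (exact permutation p = 0.5). With that mean as a covariate 10 glycolysis genes were lower and 2 higher. Cholesterol genes were split, with MVD and HSD17B7 of the synthesis pathway higher by 0.69 ± 0.07 and 0.61 ± 0.05, and SQLE, of the same pathway, lower by 0.44 ± 0.05.

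The direction of the calls went with the level of the gene. The filter on low counts keeps a gene that reaches it in the libraries of 1 group. A weak gene can thus enter through the group where it is high. The part of this selection in the shares of weak genes was not tested. Of 2152 protein-coding genes under 1 CPM, 608 were higher and 81 lower with SEL120-34A, 28.3% and 3.76% of them. Of 2426 protein-coding genes over 100 CPM, 384 were higher and 1267 lower, 15.8% and 52.2%. Their median change was only -0.08, and scaling by library totals alone shifted the median of all genes to 0.06. The shares by level were not counted under that scaling, so they hold for the scaling used here. As examples of weak genes chosen after their values were seen, SARM1, an enzyme of axon degeneration, had 311, 267 and 304 counts with SEL120-34A and 9, 17 and 10 counts with DMSO, and DLK1, a growth regulator of embryonic tissue, had 120, 100 and 93 counts with SEL120-34A and 0, 2 and 5 counts with DMSO. At 3 counts, the limit that a count of 0 allows was 0.022 to 0.0303 CPM in the DMSO libraries, which covers counting error only. LINC01389, an antisense transcript at chr1:47380928-47408477, measured 3.82, 3.56 and 3.32 CPM with SEL120-34A and 0.125, 0.181 and 0.163 CPM with DMSO, a change of 4.48 ± 0.18, or 3.29 with reads of both strands counted. POLR2J4, which has near-identical relatives, rose by 2.84 ± 0.17, or by 1.38 in the RSEM estimates. The genes ENSG00000260948 and ENSG00000257258, which the files' annotation gives no symbol, rose by 1.99 ± 0.12 and 1.69 ± 0.08, and ENSG00000279369 and ENSG00000275437 fell by 1.36 ± 0.11 and 1.3 ± 0.11. Between 0.1 and 1 CPM, 309 protein-coding genes rose by at least 2-fold, and 25.9% of these began within 10 kb downstream of a gene of at least 10 CPM on the same strand, without overlap, a position noticed after values had been seen. Of 1003 genes of that level that were not called, 12.0% did. Under 0.1 CPM the order was the other way, with 9.82% of 112 genes that rose by at least 2-fold and 12.4% of 460 that were not called. Non-coding classes were mixed. Of 1389 lincRNAs 356 were higher and 165 lower (25.6% and 11.9%), and of 90 snoRNAs 1 was higher and 22 lower (1.11% and 24.4%). Over all genes tested the shares were 22.4% higher and 22.6% lower, and 16.5% and 10.1% outside the protein-coding class.

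Several library measures moved with the weak transcripts. After thinning to 98975944 counts, 27194, 27136 and 26914 genes had a count with SEL120-34A and 25852, 26031 and 26099 with DMSO. Reads in no gene were 6.26, 6.28 and 6.09% with SEL120-34A and 5.93, 5.91 and 5.97% with DMSO, and counts on the opposite strand were 6.66, 6.62 and 6.64% of those on the gene's strand with SEL120-34A and 6.49, 6.5 and 6.48% with DMSO. Mitochondrial genes took 6.49, 6.34 and 6.44% of counts with SEL120-34A and 6.22, 5.97 and 6.07% with DMSO. In each of these the groups did not overlap, and the exact two-sided permutation test gave p = 0.1, the smallest that 3 against 3 libraries allow. Their part in the rises of weak genes was not tested.

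**Figure D3:**
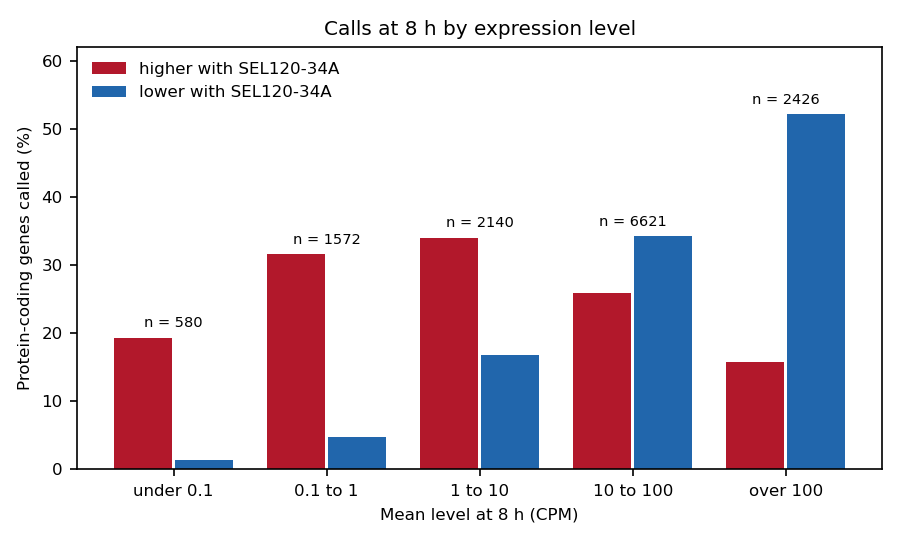
Share of protein-coding genes called higher (red) or lower (blue) with SEL120-34A against DMSO at 8 h, in percent, by mean level in CPM, with the number of genes tested in each class. With the scaling used here, the share of higher calls exceeds that of lower calls in the classes under 10 CPM. The reverse holds in those above 10 CPM, with 52.2% lower in the top class.

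The response was set against that to AML874 for the same time by a direct test between both treatments, in the same model of all 6 groups, in which the other libraries share in the filter, the scaling and the estimate of spread. With the doses not given, it compares these treatments and not the compounds at a matched dose. Between SEL120-34A and AML874, 6536 genes differed (31.2%), 3190 higher and 3346 lower with SEL120-34A (15.2% and 16.0%). BCLAF1 and THRAP3 were lower with SEL120-34A, by 0.76 and 0.62 on the log2 scale, and at 149 ± 2.38 and 184 ± 1.89 CPM with SEL120-34A against 252 and 282 CPM with AML874. HEXIM1 and BMF were higher with SEL120-34A, at 34.8 and 28.8 CPM against 20.3 and 17.5 CPM with AML874, log2 differences of 0.78 and 0.72. The largest differences above 10 CPM were ABTB1 (1.12), ENPP2 (1.01), YJEFN3 (0.98), MAMDC4 (0.92) and PINK1 (0.89), higher with SEL120-34A, and C5 (-0.90), BCLAF1, MSMO1 (-0.75), ANGEL1 (-0.74) and PSEN2 (-0.65), lower. Against DMSO, ABTB1, MAMDC4 and C5 changed by 0.29, 0.34 and 0.16 with SEL120-34A and by -0.82, -0.58 and 1.06 with AML874. ENPP2, YJEFN3, BCLAF1, MSMO1, ANGEL1 and PSEN2 changed by 1.36, 1.21, -1.05, -0.55, -0.66 and -0.79 with SEL120-34A. With AML874 these 6 changed by 0.35, 0.23, -0.29, 0.20, 0.08 and -0.14. PINK1, a kinase of mitochondrial quality control, measured 19.3, 19.6 and 18 CPM with SEL120-34A, 10.3 CPM on average with AML874, and 17.7, 18.6 and 19.2 CPM with DMSO. MPEG1 and MS4A6A were lower with SEL120-34A than with AML874, by 0.32 and 0.39.

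Among gene lists in that test, endoplasmic reticulum chaperones were lower with SEL120-34A in 13 of 16 and higher in 1, and cholesterol genes lower in 13 of 24 and higher in 1. HSPA5, the central chaperone, measured 405 ± 11.7 CPM with SEL120-34A and 542 CPM with AML874. MSMO1 of cholesterol synthesis measured 25.5 ± 0.695 CPM with SEL120-34A, 43 CPM with AML874 and 37.4 CPM with DMSO. Over all protein-coding genes in that test 20.9% were lower and 20.2% higher. Against DMSO, endoplasmic reticulum chaperones had 4 higher and 7 lower of 16 (median -0.01). Cholesterol genes had 6 higher and 4 lower of 24 (median 0.02) against DMSO, where 25.7% of protein-coding genes were higher and 29.8% lower. In the test against AML874, DNA replication genes were lower with SEL120-34A in 23 of 41 and mitotic genes higher in 15 of 26. For EGR1 the difference was 0.75 (adjusted p = 0.0611) and passed the threshold in 4 alternatives, among them DESeq2 (adjusted p = 0.00389) and a fit of only the groups compared (adjusted p = 1.96e-06), and MIR223HG was 0.30 lower with SEL120-34A.

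**Figure D4:**
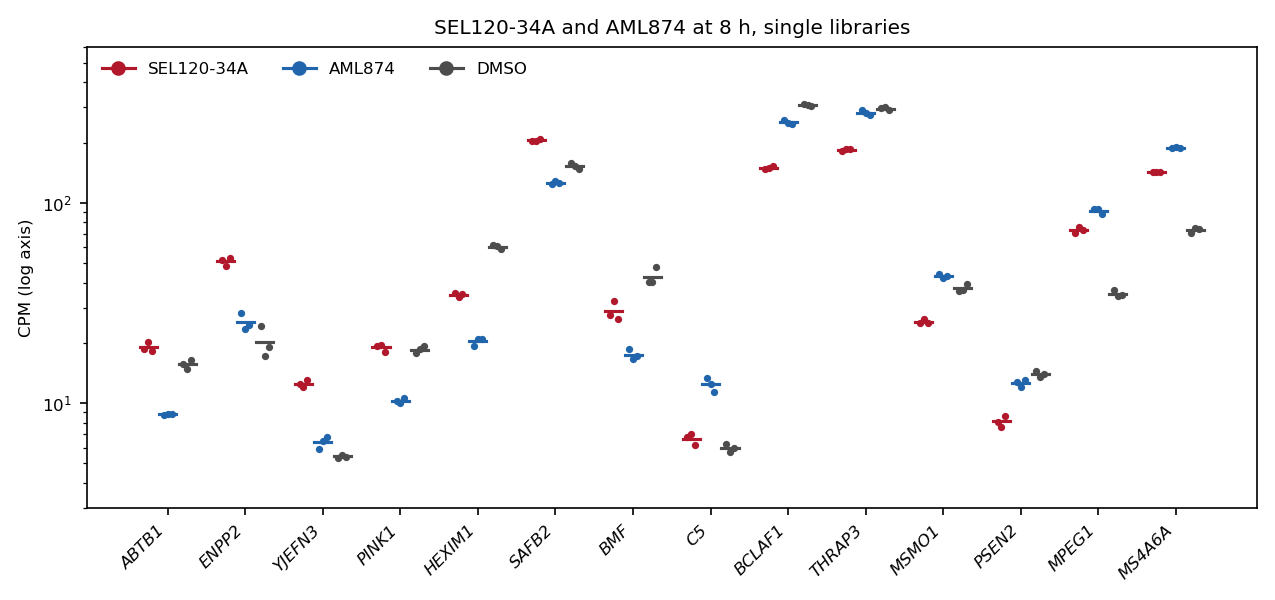
Levels of 14 genes in single libraries at 8 h, in CPM on a log axis, with SEL120-34A in red, AML874 in blue and DMSO in grey, points for libraries and bars for means. BCLAF1 and THRAP3 lie lower with SEL120-34A than with AML874, and HEXIM1 and BMF higher.

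At 24 h, in libraries that share none with those at 8 h, 7879 genes were called (37.7%), 3996 higher and 3883 lower with SEL120-34A (19.1% and 18.6%). Of the 4693 genes higher at 8 h, 2109 were higher at 24 h, 309 lower and 2275 not called. Of the 4732 genes lower at 8 h, 2209 were lower at 24 h and 417 higher. The genes called in the same direction at both times are 52.8% of all rises and 56.9% of all falls at 24 h. The effect at 24 h differed from that at 8 h for 5706 genes (27.3%), upward for 14.2% and downward for 13.0% of the genes tested. Genes chosen for a large effect at 8 h tend to show a smaller one in other libraries.

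EGR1 was low at 24 h too, with a log2 change of -3.45, and the test of the difference between times did not call it. RBM14 and BCLAF1 measured 122 and 274 CPM with SEL120-34A at 24 h, against 131 and 278 CPM with DMSO at 24 h, and the difference of effects was 1.55 and 1.03. MIR223HG was lower at 24 h too, by 1.18, less than at 8 h by 1.27. Of the rises, MS4A4A changed by 1.67 at 8 h and 1.79 at 24 h, a difference that was not called, and MPEG1 by 1.06 at 8 h and 1.89 at 24 h, a difference that was. CD34 had a change of 3.41 at 24 h, larger than at 8 h by 1.91. Other effects had opposite signs at both times, each called. CCL2 was 1.00 higher at 8 h and 1.58 lower at 24 h, and CSF1R was 0.39 higher and 0.70 lower. FLT3 was 0.50 lower at 8 h and 0.46 higher at 24 h. The gene of the receptor GPR174, CAT, which encodes catalase, and ANXA2R had differences of 1.46, 1.05 and 1.01, and ZFP36L1 and DNAH1 of -1.78 and -1.07. The rises of ENPP2 and C3AR1 were not called at 24 h, when their changes were 0.30 and -0.25. The difference of effects for ENPP2, -1.05, had an adjusted p of 0.0359 and was no longer called without any 1 SEL120-34A library of 8 h, replicate 2 or 3 of DMSO at 8 h, replicate 1 or 3 of SEL120-34A at 24 h or replicate 1 of DMSO at 24 h, with values of -0.78 to -1.09.

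DNA replication genes were higher at 24 h than their effect at 8 h in 23 of 41 and lower in 0, against 18.2% of protein-coding genes higher and 17.0% lower. Of protein-coding genes at 100 CPM or more, 35.7% were higher and 10.9% lower in this test. Over all genes tested, 14.2% were higher and 13.0% lower. Mitotic genes moved opposite to the replication genes, with 15 of 26 lower and 0 higher. snoRNA host genes were higher in 15 of 28 and lower in 0, and MHC class II genes in 10 of 16 and lower in 0, HLA-DRA among them with 0.49. Because both effects enter this difference, a fall at 8 h alone gives a positive value.

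**Figure D5:**
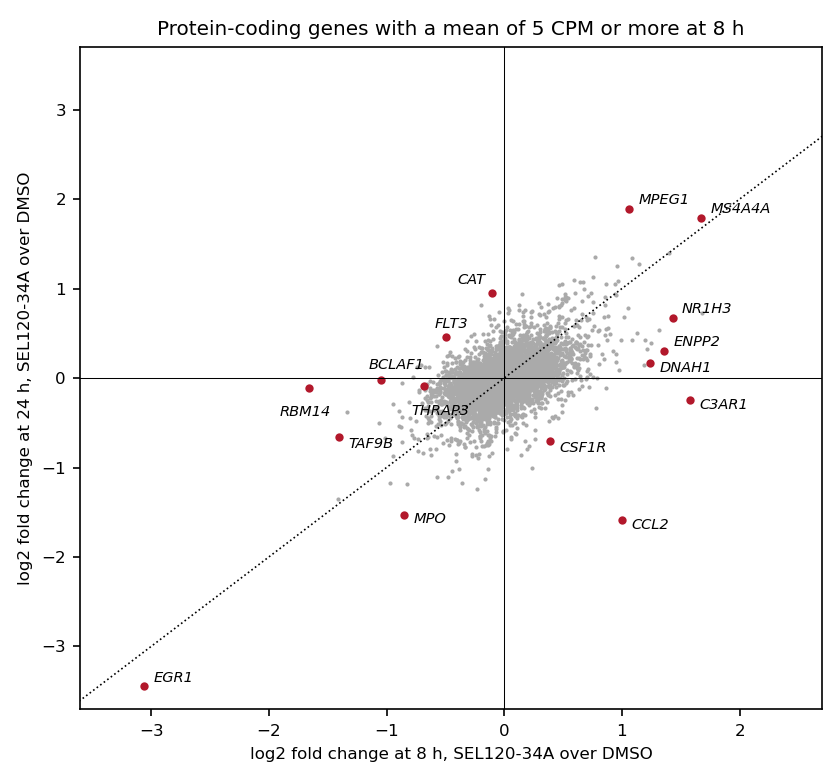
Log2 fold change of SEL120-34A over DMSO at 24 h against that at 8 h for protein-coding genes with a mean of at least 5 CPM at 8 h, each point a gene, with the dotted line where both are equal and genes of the text in red. EGR1 and MS4A4A lie near the line, RBM14 and BCLAF1 near zero at 24 h, and CCL2 below zero at 24 h.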

How the data were processed

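Polyadenylated RNA of OCI-AML1 cells was sequenced in 18 libraries. The authors deposited, for each library, whole-number read counts per gene for both strand settings and RSEM tables with expected counts and TPM, levels scaled for length and depth, made with STAR 2.7.1a and RSEM 1.3.2 on GRCh38 per the submitters' processing notes. Counts on the reverse strand were used, and summary lines that name no gene were left out. One model of all 6 groups, 12 residual degrees of freedom, was fitted with edgeR 4.0.16 (trimmed mean scaling, its filter on low counts, robust quasi-likelihood test, Benjamini-Hochberg adjustment over 20920 genes, threshold 0.05) in R 4.3.3. It was tested on simulated data. Rounded expected counts were an alternative, as were limma 3.58.1 and DESeq2 1.42.0. The deposited TPM were used for no test.

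Named genes are the largest changes whose libraries did not overlap, 10 each way at 50 CPM or more, 6 each way at 5 to 50 CPM and 4 each way among other biotypes at 2 CPM or more, the 5 largest each way in the other tests at 10 CPM or more, and called members of lists. Some list members and the genes singled out in the text as chosen after their values were seen lie outside that rule. Members and lists were chosen with earlier results of these data known. Some genes that the rule names are not reported here.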

Additional observations from a re-analysis of the deposited data

Results flagged for a closer look

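The effect of SEL120-34A differed between 24 h and 8 h, by the test of the difference itself, for 5706 genes (edgeR's quasi-likelihood test, Benjamini-Hochberg adjustment). On the log2 scale, and as the effect at 24 h minus that at 8 h, the differences were positive for RBM14 (1.55), GPR174 (1.46), MIR223HG (1.27), CAT (1.05), BCLAF1 (1.03) and ANXA2R (1.01). They were also positive for CD34 (1.91), FLT3 (0.96), MPEG1 (0.83) and HLA-DRA (0.49). They were negative for CCL2 (-2.58), C3AR1 (-1.83), ZFP36L1 (-1.78), CSF1R (-1.09), DNAH1 (-1.07) and ENPP2 (-1.05). The same 8 h libraries enter this difference and the effect at 8 h. What sets these differences was not tested.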

How the results depend on the processing

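Against 9425 calls, separate fits that each left out 1 library of either group, with their own filter, made 8518 to 9020 calls, 3993 to 4139 higher and 4525 to 4881 lower, with 973 to 1088 higher and 199 to 221 lower by at least 2-fold. The comparison with AML874 gave 5506 to 5802 genes in such fits, and the difference between times 5055 to 5720. Scaling by library totals alone left 3131 genes lower. With a filter of 1 CPM in 3 libraries, which tests fewer weak genes, 240 were higher and 37 lower by 2-fold. Deviations of same-numbered libraries from their group means correlated at 0.0827, -0.519 and -0.514, and those of the other pairs at -0.25 to 0.579. Deviations from a mean of 3 libraries are not independent, so these values cannot tell whether replicate numbers pair the samples. With the replicate block 9274 genes were called. Leaving out the 2 libraries highest in hypoxia targets, an alternative chosen after seeing the data, gave 8385 calls. Of 174 called results of single genes, 161 kept their call and sign in every setting. Signs changed for RBM4 (-0.41 with RSEM estimates) and for values near 0 that were not called. These were CDK19 (0.06 with library totals, 0.01 with the 1 CPM filter, 0.00 with RSEM estimates and with only the groups compared, 0.05 with the hypoxia covariate, -0.08 to 0.04 without single libraries), CCNC (0.00, library totals), CD74 (-0.00 with median-of-ratios scaling and DESeq2, -0.01 with RSEM, -0.03 to 0.01 without single libraries) and MS4A3 (-0.01 with RSEM and with the covariate, -0.05 to 0.03 without single libraries, -0.08 without both hypoxia-high libraries). PINK1 was -0.09 with both strands counted and -0.01 to 0.06 without single libraries. Without single libraries MED12 ran from -0.01 to 0.05, HLA-DRA from -0.02 to 0.02, MED13L from -0.01 to 0.06, BCL2 from -0.00 to 0.02 and ABCA1 from -0.02 to 0.13. At 3 libraries a group, exact tests of single library measures cannot go below 0.1.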
